A study of Mus musculus with 5 samples.

Results

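The regions described here flank the most CpG-dense parts of the mouse genome that reduced representation bisulfite sequencing, an assay of DNA methylation at CpG cytosines, covered in all 5 libraries. The autosomes were divided into fixed tiles of 1 kb (build mm10), and a tile with 40 or more cytosines listed in every library was called dense. A flanking tile held 3 to 19 such cytosines and lay 1 or 2 tiles away from a dense tile. There were 10514 flanking tiles among 208207 autosomal tiles with 3 or more shared cytosines (5.05%), of which 7224 lay 1 tile and 3290 lay 2 tiles from the nearest of 15062 dense tiles. The level of a tile in a library is the mean methylation, in percent, over its shared cytosines, so every flanking tile has a level in every library and none was removed for a low value.

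The control library was made from muscle, and 4 libraries were made from teratomas, tumours of mixed differentiated tissue that arose after embryonic stem cells were placed in tetraploid embryos. The labels name the teratomas by the culture condition of those cells, P5_2iL, P5_2iL_F, P5_a2iL_1 and P5_LCDM_1, without spelling the names out, and give C57BL/6x129S6 as the strain of all 5 samples, with no age or time. Each group holds 1 library, so all differences below compare libraries, have no replicate check and carry no test. The libraries listed from 4017125 cytosines (muscle) to 5323090 (P5_2iL_F), the read depth behind a percent is unknown, and no RNA was used here against which to check the labelled tissues. A tissue is a mix of cells, and in bulk DNA another mix of cell types and another methylation level within cells cannot be told apart.

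DNA methylation in mammals sits mainly on the cytosines of CpG dinucleotides, and most CpGs of differentiated tissue are methylated. CpG islands, the dense clusters found at many promoters, are the main exception and usually stay unmethylated. The DNA beside an island, called its shore, is where methylation passes from the low level of the island to the high level of the surrounding genome, and shores are known to differ between tissues and between normal and tumour cells. The dense tiles here stand in for islands and the flanking tiles for shores, with the limit that tiles follow a fixed grid and not the edges of an island.

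The promoter windows of 5 genes show what such borders look like in sequence. The windows are RefSeq sequences (GRCm38.p6, the same assembly as mm10), 250 bases before to 50 bases after a transcription start, written 5′ to 3′ on the strand of the gene, with the CpGs listed in all 5 libraries in capitals. Hspb6 (chr7:30553051-30553350, plus strand) and Nes (chr3:87970843-87971142, plus strand) are shown because the promoter stayed near 0% while a tile beside its dense tile did not. Cyfip2 (chr11:46312309-46312608, minus strand) is shown because its promoter was low in every library while a tile 2 away from its dense tile was lower in the teratomas. Popdc2 (chr16:38361940-38362239, plus strand) and Tex14 (chr11:87404815-87405114, plus strand) are shown because promoter and flank were both higher in the teratomas.
Hspb6: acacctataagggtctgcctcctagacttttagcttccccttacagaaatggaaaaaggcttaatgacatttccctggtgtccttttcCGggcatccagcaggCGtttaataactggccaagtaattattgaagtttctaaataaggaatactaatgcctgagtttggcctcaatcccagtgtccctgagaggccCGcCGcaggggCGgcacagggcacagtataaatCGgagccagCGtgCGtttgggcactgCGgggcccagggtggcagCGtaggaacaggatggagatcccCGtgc
Nes: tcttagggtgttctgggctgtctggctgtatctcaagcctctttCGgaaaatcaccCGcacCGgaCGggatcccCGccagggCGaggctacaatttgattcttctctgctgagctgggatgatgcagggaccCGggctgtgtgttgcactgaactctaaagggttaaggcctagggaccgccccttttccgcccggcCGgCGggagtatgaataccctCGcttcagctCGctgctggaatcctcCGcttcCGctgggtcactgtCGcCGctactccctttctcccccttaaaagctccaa
Cyfip2: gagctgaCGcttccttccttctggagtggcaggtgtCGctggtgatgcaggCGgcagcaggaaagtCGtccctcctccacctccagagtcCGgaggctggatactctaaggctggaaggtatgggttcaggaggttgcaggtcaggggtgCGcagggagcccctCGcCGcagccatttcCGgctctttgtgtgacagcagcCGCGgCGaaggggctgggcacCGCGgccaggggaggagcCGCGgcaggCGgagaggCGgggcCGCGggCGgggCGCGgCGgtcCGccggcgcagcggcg
Popdc2: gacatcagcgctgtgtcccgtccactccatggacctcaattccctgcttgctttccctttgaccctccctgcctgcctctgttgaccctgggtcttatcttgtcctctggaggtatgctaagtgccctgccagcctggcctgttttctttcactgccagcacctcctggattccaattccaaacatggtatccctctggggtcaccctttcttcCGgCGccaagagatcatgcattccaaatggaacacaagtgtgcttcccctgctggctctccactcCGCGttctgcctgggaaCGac
Tex14: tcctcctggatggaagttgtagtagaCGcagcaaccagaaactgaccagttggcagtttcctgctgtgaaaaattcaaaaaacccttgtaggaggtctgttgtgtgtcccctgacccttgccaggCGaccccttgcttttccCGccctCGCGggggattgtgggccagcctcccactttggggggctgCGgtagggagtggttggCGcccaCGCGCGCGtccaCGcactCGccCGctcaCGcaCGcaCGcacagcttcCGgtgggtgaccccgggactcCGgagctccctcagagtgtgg

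In the Hspb6 window all 11 CpGs were listed, and their 22 cytosines had a mean level of 0.217% in muscle, 0.239% in P5_2iL, 0.207% in P5_2iL_F, 0% in P5_a2iL_1 and 0.587% in P5_LCDM_1. In the Nes window 15 of 18 CpGs were listed, with levels from 0.463% in muscle to 2.98% in P5_2iL_F. The Cyfip2 window, with 25 of 29 CpGs listed, ranged from 0.368% in P5_2iL_F to 6.78% in P5_a2iL_1. These 3 promoters were low in every library.

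The Popdc2 window, with 5 of 7 CpGs listed, lay at 10.7% in muscle, 88.4% in P5_2iL, 92.9% in P5_2iL_F, 79.1% in P5_a2iL_1 and 77.7% in P5_LCDM_1. The Tex14 window, with 19 of 20 CpGs listed, lay at 29.8% in muscle, 84.7% in P5_2iL, 83.2% in P5_2iL_F, 71.7% in P5_a2iL_1 and 65.8% in P5_LCDM_1. It crosses the border between the flanking and the dense tile, and the 5 cytosines inside the flanking tile read 26.7% in muscle and 65.7% (P5_a2iL_1) to 90% (P5_2iL) in the teratomas. At both promoters muscle was the low library.

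More transcription starts lay in dense tiles than in their flanks. Of 31396 promoter windows in the RefSeq table, 8355 started in a dense tile and held 26.7 CpGs on average (the letters CG, which read the same on either strand). Another 686 started in a flanking tile 1 tile away and held 15.97, and 115 started 2 tiles away and held 8.69, against 12.6 over all windows. Windows with 10 or more CpGs made up 67.8% of those starting 1 tile away, 33.04% of those starting 2 tiles away and 44.0% of all windows.

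Methylation rose steeply across the flanking tiles in every library. Dense tiles had a mean of 10.3% in muscle, 12.4% in P5_2iL, 12.3% in P5_2iL_F, 12.1% in P5_a2iL_1 and 12.8% in P5_LCDM_1. At 1 tile the means were 29.99%, 35.7%, 35.2%, 33.32% and 34.2% in the same order, and at 2 tiles they were 60.5%, 70.0%, 69.0%, 65.0% and 64.7%. The rise from 1 to 2 tiles was thus of like size in the 5 libraries, 30.5 points for muscle, 34.3 in P5_2iL, 33.7 in P5_2iL_F, 31.6 in P5_a2iL_1 and 30.6 in P5_LCDM_1, with SDs over the 19 autosomes of 3.54 (P5_LCDM_1) to 4.20 points (P5_2iL). The spread over autosomes is a spread within a library and not a replicate error.

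**Figure D1:**
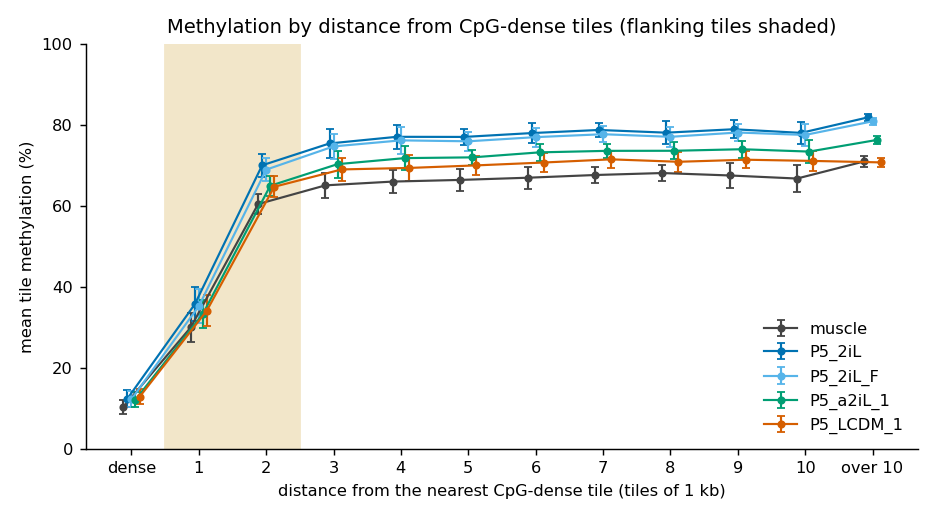
Mean tile methylation (vertical axis, percent) against the distance from the nearest CpG-dense tile in tiles of 1 kb (horizontal axis) in the 5 libraries, with the dense tiles at the left, the flanking tiles shaded and error bars giving the SD over 19 autosomes. All libraries climb from 10.3% to 12.8% in dense tiles to 60.5% to 70.0% at 2 tiles, and P5_LCDM_1 meets muscle at the right end.

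Most of the rise was reached at 2 tiles. In tiles of 3 to 19 cytosines that lay 3 tiles away the mean stood at 65.1% in muscle, 75.4% in P5_2iL, 74.7% in P5_2iL_F, 70.3% in P5_a2iL_1 and 69.0% in P5_LCDM_1, and beyond 10 tiles it was 71.0%, 81.9%, 80.9%, 76.3% and 70.8% in that order. The order of the libraries at 2 tiles, with muscle lowest and P5_2iL highest, changed beyond 10 tiles, where P5_LCDM_1 and muscle lay 0.259 points apart.

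Tiles at the 2 distances are mostly beside different dense tiles, so the step was also taken within pairs. In 1216 pairs a tile 2 away had a flanking tile between it and its dense tile. There the farther tile exceeded the nearer by a mean of 22.0 points for muscle, 24.4 in P5_2iL, 24.2 in P5_2iL_F, 22.6 in P5_a2iL_1 and 22.2 in P5_LCDM_1. It was the higher tile in 70.0% (P5_2iL) to 71.5% (P5_a2iL_1) of pairs, and the reverse order by 25 points or more occurred in 7.48% (P5_2iL_F and P5_a2iL_1) to 8.80% (muscle). These paired steps were smaller than the steps between the means, and the libraries again differed little.

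What lay between a dense tile and a tile 2 steps away went with its level. The tile between held no shared cytosine for 1158 of the 3290 tiles, 1 or 2 for 244, 3 to 19 for 1216 and 20 to 39 for 672. With 20 to 39 cytosines between, the outer tile lay at 51.3% in muscle and 59.6% in P5_2iL, and with 0 to 2 between at 64.8% and 74.98%. The outer tile was thus lower where the tile between held more shared cytosines, in both libraries. Tiles with few CpGs and tiles left uncovered by the assay were not told apart here.

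At the scale of 100 bp the level climbed within the tile next to the dense tile. The first 100 bp from its edge held 26707 of the cytosines in tiles 1 away (39.2%), with a mean of 15.3% in muscle and 17.7% (P5_a2iL_1) to 18.5% (P5_2iL) in the teratomas. Between 401 and 500 bp the mean stood at 43.3% in muscle, 51.1% in P5_2iL, 50.5% in P5_2iL_F, 46.9% in P5_a2iL_1 and 48.3% in P5_LCDM_1. Between 1401 and 1500 bp it had reached 61.3%, 70.1%, 68.8%, 65.6% and 64.7% in the same order, and it moved by under 4 points from there to 2000 bp. The difference from muscle in P5_2iL widened from 3.19 points in the first 100 bp to 7.90 at 401 to 500 bp and 9.92 at 1901 to 2000 bp. In P5_LCDM_1 it was 3.04, 5 and 5.35 points over the same windows.

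**Figure D2:**
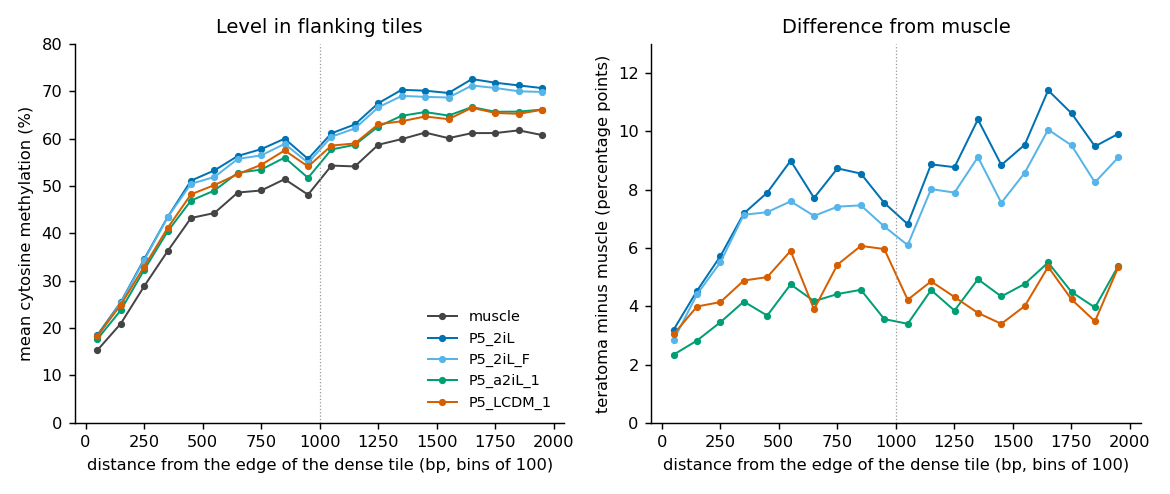
Mean cytosine methylation in flanking tiles (left, percent) and its difference from muscle (right, percentage points) in bins of 100 bp by distance from the edge of the dense tile, with the dotted line at the border of the tiles 1 and 2 away. Muscle is lowest in every bin, and the P5_2iL difference widens from 3.19 to 9.92 points while that of P5_LCDM_1 ends at 5.35.

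The same climb was seen inside single tiles. In 947 tiles 1 away with 2 or more cytosines in each 500 bp, the 500 bp nearer the dense tile averaged 32.97% in muscle and 40.1% in P5_2iL, and the 500 bp farther from it 48.1% and 57.5%. The farther part was the higher in 65.1% (muscle and P5_2iL_F) to 67.5% (P5_LCDM_1) of these tiles. In 601 tiles 2 away the parts differed by 0.417 points in muscle and 3.73 in P5_2iL, so the slope lay mostly in the tile beside the dense tile.

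More tiles 1 away were low than intermediate or high. In muscle 55.5% of them lay under 20% and 14.1% over 80%, and in P5_2iL 51.8% and 22.7%. P5_2iL_F had 51.6% under 20% and 21.8% over 80%, P5_a2iL_1 50.8% and 16.7%, and P5_LCDM_1 49.6% and 17.0%. At exactly 0% were 20.5% of the tiles 1 away in muscle and 17.1% (P5_2iL_F and P5_LCDM_1) to 19.9% (P5_a2iL_1) in the teratomas. Muscle thus had the largest share of low tiles, 55.5% against 49.6% (P5_LCDM_1) to 51.8% (P5_2iL) in the teratomas, and the smallest share of high tiles. The share of low tiles was below that of muscle by the most in P5_LCDM_1, and the share of high tiles above it by the most in P5_2iL and P5_2iL_F.

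At 2 tiles the libraries differed more in shape than at 1. Over 80% lay 37.4% of these tiles in muscle, 58.0% in P5_2iL, 55.3% in P5_2iL_F, 42.3% in P5_a2iL_1 and 42.4% in P5_LCDM_1. Between 20 and 80% lay 45.6% in muscle, 27.3% in P5_2iL, 30.3% in P5_2iL_F and 44.5% in each of P5_a2iL_1 and P5_LCDM_1. Muscle, P5_a2iL_1 and P5_LCDM_1 thus kept many tiles at intermediate levels, whereas in P5_2iL and P5_2iL_F more than 55% were high.

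**Figure D3:**
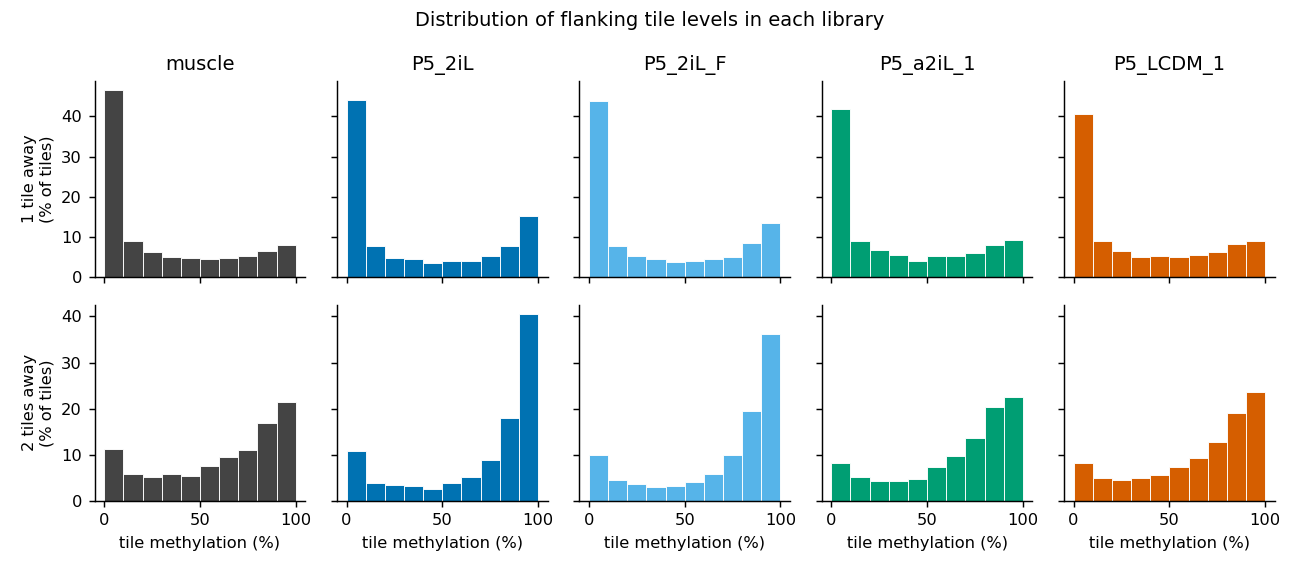
Share of flanking tiles (vertical axis, percent of tiles) in each class of 10 points of tile methylation (horizontal axis, percent), by library, for tiles 1 away (top) and 2 away (bottom). The top panels peak at the left in all libraries, and at the bottom the share over 80% runs from 37.4% in muscle to 58.0% in P5_2iL.

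Intermediate tiles were of several kinds. Among tiles 1 away with 5 or more cytosines, 29.0% in muscle had a mean of 20 to 80%, and 53.2% of those held cytosines both under 20% and over 80%. In P5_LCDM_1 32.3% were intermediate and 40.03% of those held both. Of the single cytosines 1 tile away, 20.2% lay between 20 and 80% in muscle, 17.3% in P5_2iL, 18.9% in P5_2iL_F, 23.6% in P5_a2iL_1 and 24.6% in P5_LCDM_1. Intermediate single cytosines were thus most frequent in P5_LCDM_1 and least in P5_2iL at this distance.

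Each teratoma library had a higher mean than muscle over the flanking tiles. The difference was 6.92 points in P5_2iL, 6.27 in P5_2iL_F, 3.71 in P5_a2iL_1 and 4.20 in P5_LCDM_1, with SDs over autosomes of 1.2, 1.15, 0.675 and 0.712 points, and it was above 0 on each of the 19 autosomes in each of the 4 comparisons. The median differences were smaller, at 2.08, 1.85, 0.741 and 0.805 points, so a minority of tiles with large differences carried much of the mean. Across tiles, which are not replicates, Pearson's r with muscle ranged from 0.853 (P5_2iL) to 0.892 (P5_a2iL_1) over the 10514 tiles, which all share the muscle library.

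A tile was counted as different by size alone, at 25 percentage points or more. In P5_2iL 1585 flanking tiles (15.1%) were higher than muscle, where 17.4% of all autosomal tiles were, and 428 (4.07%) were lower, where 3.10% of all tiles were. In P5_2iL_F 1451 (13.8%) were higher, with 16.1% over all tiles, and 400 (3.804%) lower, with 2.92% over all tiles. In P5_a2iL_1 998 (9.49%) were higher, with 11.1% over all tiles, and 346 (3.29%) lower, with 2.89% over all tiles. These 3 shares of higher tiles were below, and those of lower tiles above, the level of all tiles, in each case by under 3 points.

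The P5_LCDM_1 library stood apart from this. Of its flanking tiles 1101 (10.5%) were higher than muscle, with 9.36% over all tiles, and 374 (3.56%) were lower, with 6.76% over all tiles. Higher tiles outnumbered lower ones 2.94 to 1 at the flanks and 1.24 to 1 among the 161119 tiles of 3 to 19 cytosines farther from dense tiles, where 10.2% were higher and 8.24% lower. In P5_2iL the same ratio was 3.70 at the flanks and 5.76 farther away.

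The 4 comparisons with muscle share that library, and side by side they differed in how they changed with distance. The mean difference of P5_2iL was 2.04 points in dense tiles, 5.71 at 1 tile, 9.58 at 2, 10.8 at 3 to 10 and 10.9 beyond 10. That of P5_2iL_F was 1.92, 5.25, 8.51, 9.95 and 9.88 points, and that of P5_a2iL_1 was 1.80, 3.34, 4.52, 5.91 and 5.28. That of P5_LCDM_1 was 2.48, 4.17, 4.28, 3.69 and -0.259 points. P5_LCDM_1 was thus above muscle in the dense and flanking tiles and level with it in the distant genome, while the other 3 were farther above muscle in the distant genome than at the flanks.

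**Figure D4:**
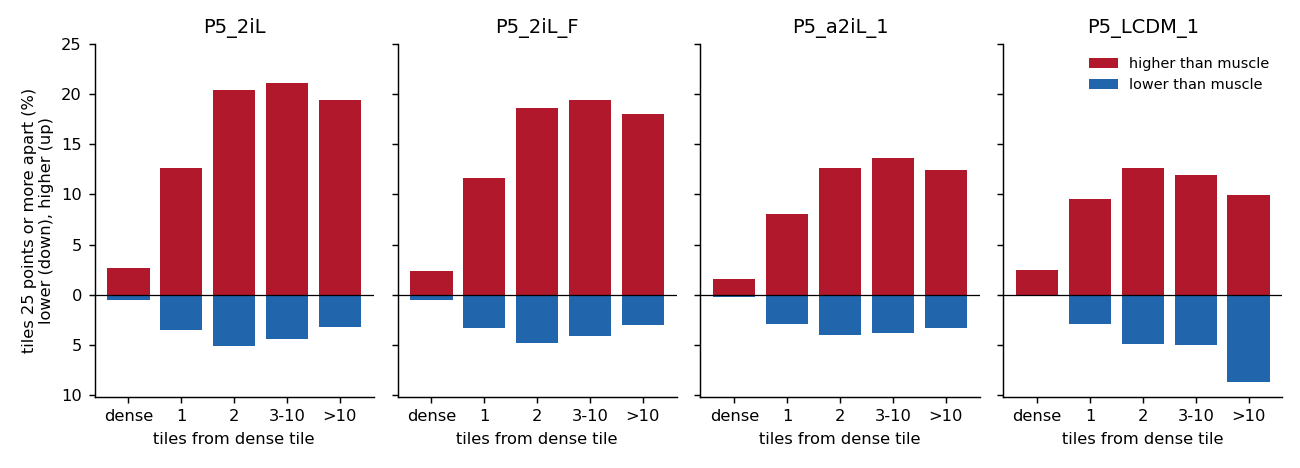
Share of tiles (vertical axis, percent) 25 points or more above muscle (red, upward) or below it (blue, downward), by distance class in tiles from the dense tile, with 1 panel for each teratoma. In P5_LCDM_1 lower tiles make up 2.94% at 1 tile, 4.92% at 2 and 8.70% beyond 10, whereas in P5_2iL they make up 3.57%, 5.17% and 3.26%.

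The gap between flanks and the distant genome in P5_LCDM_1 was looked at by muscle level, because distant tiles start higher. Muscle was read on the minus strand to sort tiles and on the plus strand to measure them, so that the same reads did not do both, in tiles with 3 or more CpGs listed on both strands. Among tiles over 80% in muscle, P5_LCDM_1 minus muscle was -1.07 points in 941 flanking tiles and -4.68 in 28145 farther tiles. Among tiles of 20 to 80% it was 4.94 points in 1526 flanking and 2.72 in 27217 farther tiles, and under 20% it was 4.47 in 2163 and 12.9 in 5474. The flanking and farther tiles over 80% had nearly the same mean in muscle on the plus strand, 86.8% and 86.9%, and there the flanks were nearer to muscle than the distant genome. Within the lower classes the flanks started lower, at 51.8% against 61.6% in the middle class and 6.04% against 15.5% under 20%, so those differences were not read at equal levels. The difference between flanking and farther tiles has no test here.

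For P5_2iL the same strata gave 3.84 points under 20%, 9.69 at 20 to 80% and 2.52 over 80% in flanking tiles, against 21.5, 15.4 and 3.73 in farther tiles. The flanks were nearer to muscle in each class in P5_2iL, with muscle levels that matched only over 80%. In that class P5_2iL_F gave 1.58 points in flanking and 2.95 in farther tiles. P5_a2iL_1 went the other way, with -1.49 points in flanking and -0.425 in farther tiles, so its flanks lay farther from muscle. Of flanking tiles under 20% in muscle 7.68% were 25 points or more higher in P5_2iL, and of such farther tiles 37.4%.

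The strands of a CpG within a library gave the only measure of error. Over 4630 flanking tiles with 3 or more CpGs listed on both strands, the strands of 1 library lay 25 points or more apart in 8.53% of tiles in muscle, 2.83% in P5_2iL, 3.07% in P5_2iL_F, 7.67% in P5_a2iL_1 and 4.73% in P5_LCDM_1. Opposite strands of P5_2iL and muscle were that far apart in 19.05% of tiles, against a mean of 5.68% within these libraries. For P5_2iL_F the values were 17.6% and 5.80%, for P5_a2iL_1 14.9% and 8.10%, and for P5_LCDM_1 15.2% and 6.63%. All 4 comparisons with muscle thus exceeded the strand spread, P5_a2iL_1 by the least, but strands of 1 library share the animal and the preparation, so this spread leaves out biological variation.

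On each strand alone, 409 of the 4630 tiles were higher by 25 points in P5_2iL (8.83%, with 10.4% of the 100872 tiles of all kinds that could be read this way) and 113 lower (2.44%, with 2% of all), and in 11 the strands passed in opposite directions. P5_2iL_F had 348 higher (7.52%, with 9.21% of all), 101 lower (2.18%, with 1.73% of all) and 10 opposed. P5_a2iL_1 had 190 higher (4.10%, with 5.10% of all), 54 lower (1.17%, with 0.791% of all) and 31 opposed. P5_LCDM_1 had 255 higher (5.51%, with 4.70% of all), 71 lower (1.53%, with 2.29% of all) and 15 opposed. The excess of higher over lower tiles held in all 4 under this stricter reading.

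The teratomas differed among themselves as well. Between P5_2iL_F and P5_2iL, tiles 25 points apart were no more frequent than the strand spread. In P5_2iL_F 88 flanking tiles were higher (0.837%, with 0.716% over all tiles) and 128 lower (1.22%, with 0.975% over all tiles). Opposite strands were 25 points apart in 3.01% of tiles against 2.95% within the libraries. The mean difference of P5_2iL_F from P5_2iL was small, at -0.653 points with an SD over autosomes of 0.32. It was above 0 on 0 of the 19 autosomes. P5_a2iL_1 had 299 tiles above P5_2iL (2.84%, with 2.53% over all tiles) and 688 below it (6.54%, with 6.60% over all tiles). P5_LCDM_1 had 458 above P5_2iL (4.36%, with 2.58% over all tiles) and 844 below it (8.03%, with 15.3% over all tiles). The mean difference of P5_LCDM_1 from P5_2iL was -2.72 points at the flanks, -1.54 at 1 tile and -5.30 at 2, and -10.6 in farther tiles.

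P5_a2iL_1 had 256 flanking tiles above P5_2iL_F (2.44%, with 2.17% over all tiles) and 524 below it (4.98%, with 5.14% over all tiles). P5_LCDM_1 had 436 above P5_2iL_F (4.15%, with 2.44% over all tiles) and 696 below it (6.62%, with 13.4% over all tiles). Against P5_a2iL_1 it had 526 above (5.003%, with 2.94% over all tiles) and 469 below (4.46%, with 8.29% over all tiles), and the mean difference was 0.497 points at the flanks and -5.12 in farther tiles. In each comparison of P5_LCDM_1 the share of flanking tiles where it was higher exceeded that of all tiles, and the share where it was lower fell short of it.

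The libraries were also ranked within each tile. Muscle was alone lowest in 32.9% of flanking tiles, P5_LCDM_1 in 16.3%, P5_a2iL_1 in 14.3%, P5_2iL in 9.48% and P5_2iL_F in 8.06%. In farther tiles muscle was alone lowest in 33.8% and P5_LCDM_1 in 36.7%. P5_LCDM_1 was alone highest in 18.6% of flanking tiles, 28.8% of dense tiles and 8.27% of farther tiles. The median range over the 5 libraries was 15.7 points in a flanking tile, and 380 tiles had the same level in all 5.

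The state of the dense tile went with the level of its flank. Grouped by the mean of the dense tile over the 5 libraries, 5931 tiles 1 away lay beside a dense tile under 20%, 658 beside one of 20 to 80% and 635 beside one over 80%. Beside low dense tiles they averaged 22.0% in muscle and 26.4% in P5_2iL, and beside high ones 80.3% and 89.0%. At 2 tiles the averages were 58.0% and 67.6% beside low and 74.7% and 82.7% beside high dense tiles. Beside high dense tiles there was no rise outward, and in both libraries the tile 2 away was lower than the tile 1 away.

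More tiles 1 away were counted as higher beside dense tiles of intermediate level than beside low ones. There 30.2% were higher than muscle in P5_2iL, 29.6% in P5_2iL_F, 21.6% in P5_a2iL_1 and 21.0% in P5_LCDM_1, against 10.4%, 9.43%, 6.29% and 8.30% beside low dense tiles. The dense tiles of this class were themselves at 37.5% in muscle and 48.7% (P5_a2iL_1) to 54.1% (P5_2iL) in the teratomas. The class uses the mean over all 5 libraries, teratomas included, so a dense tile low in muscle and high in the teratomas falls into it by that difference, and the shares are given as a description only.

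Higher flanking tiles 1 away lay beside a dense tile that was higher too more often than flanking tiles did in general. Of the 912 tiles 1 away that were higher in P5_2iL than muscle, 131 (14.4%) had a dense tile that was also 25 points higher, against 3.63% of all 7224 tiles 1 away. In 593 (65.0%) the dense tile was under 20% in both libraries, against 80.9% of all. In P5_LCDM_1, 86 of 686 higher tiles 1 away (12.5%) had a dense tile that was also higher, against 3.18% of all, and 445 (64.9%) had one under 20% in both, against 79.5% of all. At 2 tiles the shares lay closer to those of all: of 673 tiles higher in P5_2iL, 38 (5.65%) had a higher dense tile and 541 (80.4%) one under 20% in both, against 4.32% and 77.5% of all 3290.

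Lower tiles showed the same at 1 tile in P5_2iL. Of 258 tiles 1 away that were lower, 18 (6.98%) had a dense tile that was also lower, against 0.665% of all, and 193 (74.8%) had one under 20% in both. In P5_LCDM_1 6 of 212 (2.83%) and 137 (64.6%) did, against 0.249% and 79.5% of all. More than 60% of the tiles counted in each of these groups thus lay beside dense DNA that was low in both tissues, which at 1 tile was a smaller share than of all tiles there.

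Position against genes was taken from RefSeq. Where a dense tile lay within 1 kb of the start of a protein coding gene, tiles 1 away averaged 23.3% upstream (1827 tiles) and 21.9% downstream (1830 tiles) in muscle, and 28.3% and 27.1% in P5_2iL. Tiles higher than muscle by 25 points made up 9.91% of the upstream and 12.6% of the downstream tiles in P5_2iL, and 8.65% and 8.09% in P5_LCDM_1, with 12.6% and 9.50% of all tiles 1 away. Both sides of these dense tiles were thus alike in level. The side was taken from the dense tile and the strand of the start. A start that lay in or beyond the flanking tile would therefore be on the other side of it. Beside dense tiles with starts on both strands, 424 tiles 1 away were at 21.2% in muscle and 21.7% (P5_a2iL_1) to 24.9% (P5_2iL) in the teratomas, the smallest differences among tiles 1 away that could be placed.

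Flanks away from gene ends were more methylated. Beside dense tiles inside a gene and over 1 kb from its ends, 1169 tiles 1 away averaged 51.6% in muscle, 59.7% in P5_2iL, 59.4% in P5_2iL_F, 56.4% in P5_a2iL_1 and 56.6% in P5_LCDM_1. Outside genes, 619 tiles averaged 41.8% in muscle and 45.7% (P5_a2iL_1) to 48.6% (P5_2iL) in the teratomas. At 2 tiles the positions lay closer together, from 54.95% outside genes to 65.8% beside starts on both strands in muscle. Flanking tiles that held a protein coding start themselves were low, with 467 tiles 1 away at 9.66% in muscle and 12.6% (P5_a2iL_1) to 13.5% (P5_LCDM_1) in the teratomas. The gene table gives the bounds of genes only, so exons and introns were not assigned, and 268 flanking tiles on chromosome 18 had no strand information.

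Lists of genes with known roles were described by the flanking tiles whose dense tile lay within 1 kb of a listed gene. Over all 10514 flanking tiles the median differences from muscle were 2.08 points in P5_2iL, 1.85 in P5_2iL_F, 0.741 in P5_a2iL_1 and 0.805 in P5_LCDM_1, which is the level to read the medians of the lists against. The shares to read their counts against are those of all flanking tiles given above, in the same order 15.1%, 13.8%, 9.49% and 10.5% higher by 25 points and 4.07%, 3.804%, 3.29% and 3.56% lower. Developmental genes held silent by Polycomb, a chromatin repressor complex, had the most flanking tiles, 133 at 77 of 119 genes. Their medians were 2.82, 2.60, 2.54 and 5 points in the same order. They were low in all libraries, with means of 18.1% in muscle, 21.7% in P5_2iL, 20.9% in P5_2iL_F, 20.3% in P5_a2iL_1 and 24.7% in P5_LCDM_1, the highest.

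By size, 15 of the 133 Polycomb tiles were higher than muscle in P5_2iL, 14 in P5_2iL_F, 9 in P5_a2iL_1 and 18 in P5_LCDM_1, or 11.3%, 10.5%, 6.77% and 13.5%, and 8, 7, 8 and 5 were lower, or 6.02%, 5.26%, 6.02% and 3.76%. The higher shares were below those of all flanking tiles (15.1%, 13.8%, 9.49% and 10.5%) except in P5_LCDM_1. Hoxa5, a homeobox gene of body patterning, had a tile at chr6:52203001-52204000 reading 0% in muscle, 90.9% in P5_2iL, 74.7% in P5_2iL_F, 75.8% in P5_a2iL_1 and 50% in P5_LCDM_1. Its dense tile moved along, from 23.8% in muscle to 90.7% in P5_2iL. Gbx2, a homeobox gene of the midbrain and hindbrain border, had a tile at chr1:89934001-89935000 reading 22.0% in muscle, 94.2% in P5_2iL, 93.0% in P5_2iL_F, 24.9% in P5_a2iL_1 and 77.7% in P5_LCDM_1.

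Irx2, a homeobox gene of the Iroquois family, went the other way at chr13:72630001-72631000, reading 94.4% in muscle, 37.0% in P5_2iL, 11.1% in P5_2iL_F, 11.1% in P5_a2iL_1 and 72.2% in P5_LCDM_1. Its dense tile stayed between 2.70% and 3.78% in all 5. Alx4, a homeobox gene of limb and skull, had 0% in muscle and 59.3% (P5_2iL_F) to 68.9% (P5_2iL) in the teratomas at chr2:93645001-93646000, 2 tiles from a dense tile of 6.81% to 15.3%. None of these 4 tiles had a CpG listed on both strands, so the strands could not be compared.

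Skeletal muscle genes had 23 flanking tiles at 16 of 76 genes, with median differences of 12.8, 13.5, 7.44 and 4.94 points. Higher than muscle were 5 tiles in P5_2iL and 4 in each other teratoma, and lower were 0 in all 4. The higher tiles made up 21.7% and 17.4%, against 15.1% (P5_2iL), 13.8%, 9.49% and 10.5% of all flanking tiles. With 23 tiles, 0 lower is near the 3.29% to 4.07% of all. Hspb6, a small heat shock protein gene active in muscle, had the widest gap at chr7:30554001-30555000, reading 0% in muscle, 100% in P5_2iL, 85% in P5_2iL_F, 86.7% in P5_a2iL_1 and 92.5% in P5_LCDM_1. Its dense tile, which holds the promoter window printed above, stayed under 1.5% in all 5, so muscle and teratomas were apart only beyond the promoter. No CpG of the Hspb6 tile could be compared between strands. The same holds for the tiles given below for Mylpf, Slc1a2, Zap70, Dll4, Cldn5, Tex14, Peg10, Mest, Klf4 and Klf2.

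Mylpf, the gene of the fast muscle regulatory light chain, had a tile 1 away at chr7:127213001-127214000 reading 14.3% in muscle, 81.1% in P5_2iL, 77.1% in P5_2iL_F, 55.4% in P5_a2iL_1 and 69.6% in P5_LCDM_1. There the dense tile differed too, at 30.3% in muscle against 82.1% (P5_LCDM_1) to 93.2% (P5_2iL). Jph2, which encodes a protein that joins membranes for calcium release in muscle, lay at 8.89% in muscle and 21.8% (P5_LCDM_1) to 46.7% (P5_2iL) in the teratomas at chr2:163398001-163399000, over only 3 cytosines.

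Connective tissue and cartilage genes had 19 flanking tiles at 14 of 47 genes, with median differences of 12.8, 10.8, 8.86 and 11.1 points. Higher than muscle were 7 tiles in P5_2iL, 5 in P5_2iL_F, 4 in P5_a2iL_1 and 5 in P5_LCDM_1, and at most 1 was lower in each. The higher tiles made up 36.8%, 26.3%, 21.1% and 26.3%, against 15.1%, 13.8%, 9.49% and 10.5% of all flanking tiles. Fbn1, which encodes the microfibril protein fibrillin, had a tile at chr2:125504001-125505000 reading 4.41% in muscle, 81.9% in P5_2iL, 65.7% in P5_2iL_F, 54.7% in P5_a2iL_1 and 81.9% in P5_LCDM_1, and a dense tile under 7% in all 5. Sox6, a transcription factor gene of cartilage and other tissues, had a tile at chr7:116030001-116031000 reading 19.6% in muscle, 94.4% in P5_2iL, 90.0% in P5_2iL_F, 63.1% in P5_a2iL_1 and 75.3% in P5_LCDM_1. Both tiles were lowest in muscle. The tile of Sox5 at chr6:144783001-144784000 went the other way, at 60% in muscle and 8.33% (P5_2iL) to 44.4% (P5_2iL_F) in the teratomas over 3 cytosines. The excess of higher tiles lay at 1 tile, with 50%, 50%, 30% and 40% of 10 tiles. At 2 tiles 22.2%, 0%, 11.1% and 11.1% of 9 tiles were higher, against 20.5%, 18.6%, 12.6% and 12.6% of all tiles there.

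Neural genes had 26 tiles with median differences of 4.20, 3.26, 3.41 and 2.96 points, and 2, 5, 1 and 0 higher by size with 0, 0, 2 and 1 lower. The higher tiles made up 7.69%, 19.2%, 3.85% and 0%, below the 15.1%, 9.49% and 10.5% of all flanking tiles in P5_2iL, P5_a2iL_1 and P5_LCDM_1 and above the 13.8% in P5_2iL_F. Nes, the gene of the neural progenitor filament nestin, had a tile at chr3:87972001-87973000 reading 25.1% in muscle, 79.6% in P5_2iL, 72.4% in P5_2iL_F, 67.2% in P5_a2iL_1 and 28.5% in P5_LCDM_1. It was within 4 points of muscle in P5_LCDM_1 alone, beside a dense tile under 5% in every library. Slc1a2, a glutamate transporter gene of astrocytes, lay at 86.1% in muscle, 100% in P5_2iL, 70.8% in P5_2iL_F, 44.4% in P5_a2iL_1 and 35.9% in P5_LCDM_1 at chr2:102661001-102662000.

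Blood and immune genes had 14 tiles with medians of 0, 0.670, 1.495 and 6.09 points. By size 3, 3, 0 and 2 were higher (15.1%, 13.8%, 9.49% and 10.5% over all flanking tiles) and 2, 2, 1 and 1 lower. The leukocyte actin regulator gene Coro1a was lower in the teratomas at chr7:126703001-126704000, reading 64.7% in muscle, 13.4% in P5_2iL, 19.99% in P5_2iL_F, 38.7% in P5_a2iL_1 and 36.6% in P5_LCDM_1. Lyl1, a transcription factor gene of blood stem cells, lay at 51.1% in muscle, 1.30% in P5_2iL, 8.74% in P5_2iL_F, 47.6% in P5_a2iL_1 and 52.2% in P5_LCDM_1 at chr8:84702001-84703000. At Lyl1 the P5_2iL and P5_2iL_F libraries were low and the other 3 lay within 5 points of each other. Zap70, a T cell receptor kinase gene, went up from 52.6% in muscle to 76.0% (P5_a2iL_1) to 95.6% (P5_2iL) at chr1:36782001-36783000.

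Endothelial genes had 21 tiles with medians of 0.866, 2.42, 2.91 and 0 points. By size 3, 3, 3 and 0 were higher, or 14.3% in the first 3 libraries, close to the 15.1% and 13.8% of all flanking tiles in P5_2iL and P5_2iL_F and above the 9.49% in P5_a2iL_1. Dll4, a Notch ligand gene of arteries, lay at 6.67% in muscle, 88.8% in P5_2iL, 53.3% in P5_2iL_F, 53.3% in P5_a2iL_1 and 26.7% in P5_LCDM_1 at chr2:119328001-119329000, over 5 cytosines. Flt4, a growth factor receptor gene of lymphatic vessels, lay at 23.5% in muscle, 84.9% in P5_2iL, 63.9% in P5_2iL_F, 49.2% in P5_a2iL_1 and 12.1% in P5_LCDM_1 at chr11:49611001-49612000. In P5_LCDM_1 0 of the 21 tiles were higher, with 10.5% over all flanking tiles. Lower were 1, 0, 0 and 1 tiles, and 1 tile is 4.76%, against 4.07% in P5_2iL and 3.56% in P5_LCDM_1 over all. In both libraries it was the tile of Cldn5 at chr16:18778001-18779000. That tile read 58.9% in muscle, 26.3% in P5_2iL, 51.55% in P5_2iL_F, 34.8% in P5_a2iL_1 and 11.3% in P5_LCDM_1 over 3 cytosines.

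Endoderm and epithelial genes had 26 tiles with medians of 6.93, 0.747, 1.85 and 3.98 points. By size 4, 3, 3 and 2 were higher, or 15.4%, 11.5%, 11.5% and 7.69%, near the 15.1%, 13.8%, 9.49% and 10.5% of all flanking tiles, and 1, 1, 1 and 2 were lower. Foxa3, a liver and gut transcription factor gene, had a tile at chr7:19021001-19022000 reading 0.926% in muscle, 65.7% in P5_2iL, 69.2% in P5_2iL_F, 28.1% in P5_a2iL_1 and 19.5% in P5_LCDM_1. St14, which encodes the epithelial protease matriptase, was lower in all teratomas, at 0% to 9.03% against 39.6% over 4 cytosines at chr9:31130001-31131000.

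Germline genes had 10 tiles with medians of 17.9, 16.4, 7.60 and 8.59 points, and 3, 4, 2 and 1 higher by size with 0 lower. In P5_LCDM_1 the 10% that were higher are near the 10.5% of all flanking tiles, and in the other 3 the 30%, 40% and 20% lie above the 15.1%, 13.8% and 9.49% of all, over few tiles. Tex14, a gene of bridges between germ cells, had a tile at chr11:87404001-87405000 reading 18.5% in muscle, 55.6% in P5_2iL, 51.1% in P5_2iL_F, 46.0% in P5_a2iL_1 and 40.3% in P5_LCDM_1, next to a dense tile of 73.6% in muscle and 85.1% (P5_LCDM_1) to 93.0% (P5_2iL_F). Tdrd1, a gene of the small RNA machinery of germ cells, had a tile at chr19:56828001-56829000 reading 62.3% in muscle, 97.7% in P5_2iL, 88.0% in P5_2iL_F, 64.4% in P5_a2iL_1 and 92.9% in P5_LCDM_1. Both dense tiles were partly or fully methylated, unlike most dense tiles.

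Imprinted genes, which are read from the copy of 1 parent, had 29 tiles with medians of 4, 3.75, 4.65 and 2.87 points and 7, 6, 7 and 6 higher by size, or 24.1%, 20.7%, 24.1% and 20.7%, against 15.1%, 13.8%, 9.49% and 10.5% of all flanking tiles. Lower were 2, 0, 0 and 2. H13, a signal peptide peptidase gene, had a tile at chr2:152706001-152707000 reading 21.1% in muscle, 96.9% in P5_2iL, 95.6% in P5_2iL_F, 77.6% in P5_a2iL_1 and 40.5% in P5_LCDM_1, and its dense tile ran from 17.1% in muscle to 93.1% in P5_2iL. Peg10, a gene of retrotransposon origin that is expressed in placenta, had a tile at chr6:4746001-4747000 reading 0% in muscle, 50% in P5_2iL, 44.4% in P5_2iL_F, 100% in P5_a2iL_1 and 42.9% in P5_LCDM_1, and its dense tile was highest in P5_a2iL_1 too, at 83.8%. At both genes the lowest and the highest library of the flank were those of the dense tile. Mest, a paternally expressed gene of a hydrolase-like protein, was not alike in this. Its tile at chr6:30739001-30740000, over 4 cytosines, read 0% in muscle, 37.5% in P5_2iL, 100% in P5_2iL_F, 37.5% in P5_a2iL_1 and 0% in P5_LCDM_1, while its dense tile was lowest in P5_2iL_F, at 5.29% against 23.3% in muscle.

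Pluripotency genes had 23 tiles with medians of 9.44, 8.22, 3.29 and 3.40 points, and both directions occurred, with 6, 6, 3 and 3 higher and 3, 3, 1 and 4 lower. The higher tiles made up 26.1%, 26.1%, 13.04% and 13.04%, against 15.1%, 13.8%, 9.49% and 10.5% of all flanking tiles, and the lower ones 13.04%, 13.04%, 4.35% and 17.4%, against 4.07%, 3.804%, 3.29% and 3.56% of all. Nodal, a signal gene of the early embryo, had a tile at chr10:61416001-61417000 reading 46.7% in muscle, 80% in P5_2iL, 70.7% in P5_2iL_F, 53.3% in P5_a2iL_1 and 96% in P5_LCDM_1. Klf2, a transcription factor gene of naive stem cells and endothelium, was lower in all teratomas, at 46.4% (P5_2iL) to 78.1% (P5_a2iL_1) against 100% at chr8:72317001-72318000, over 4 cytosines. Klf4, with the largest difference, read 75% in muscle, 25% in P5_2iL, 75% in P5_2iL_F, 0% in P5_a2iL_1 and 29.2% in P5_LCDM_1 at chr4:55534001-55535000, over 4 cytosines. Lin28a lay at 69.05% in muscle and 11.1% (P5_2iL_F) to 50% (P5_a2iL_1) in the teratomas at chr4:134015001-134016000, over 3 cytosines. Of the 23 tiles 12 lay 2 away, where 20.5%, 18.6%, 12.6% and 12.6% of all tiles were higher.

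Tumour suppressor genes had 40 tiles with medians of 1.25, 2.53, 1.79 and 1.61 points, and 8, 7, 4 and 5 higher with 0 lower. The higher tiles made up 20%, 17.5%, 10% and 12.5%, near the 15.1%, 13.8%, 9.49% and 10.5% of all flanking tiles, and 0 lower of 40 is near the 3.29% to 4.07% of all. Spint2, a protease inhibitor gene, had a tile at chr7:29280001-29281000 reading 25% in muscle, 93.2% in P5_2iL, 83.8% in P5_2iL_F, 65.1% in P5_a2iL_1 and 85.6% in P5_LCDM_1, over 4 cytosines and beside a dense tile under 2% in all 5.

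Ribosomal protein and housekeeping genes had 59 tiles with medians of 1.34, 0, 0 and 0 points. By size 6, 4, 4 and 7 were higher, or 10.2%, 6.78%, 6.78% and 11.9%, against 15.1%, 13.8%, 9.49% and 10.5% of all flanking tiles. Lower were 1, 3, 6 and 2, or 1.695%, 5.085%, 10.2% and 3.39%, against 4.07%, 3.804%, 3.29% and 3.56% of all. In P5_a2iL_1 more of these tiles were thus lower than higher. Psmd1, a proteasome subunit gene, had a tile at chr1:86062001-86063000 reading 33% in muscle, 81.9% in P5_2iL, 79.2% in P5_2iL_F, 85.2% in P5_a2iL_1 and 72.2% in P5_LCDM_1 over 6 cytosines. Rpl13, a gene of the large ribosomal subunit, had a tile at chr8:123100001-123101000 reading 49.7% in muscle, 1.16% in P5_2iL, 5.30% in P5_2iL_F, 28.9% in P5_a2iL_1 and 41.2% in P5_LCDM_1 over 16 cytosines. The dense tile of Rpl13 stayed under 1.5% in every library, and P5_2iL and P5_2iL_F were the low ones at the flank, so Psmd1 and Rpl13 went opposite ways.

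The tiles with the largest differences were taken from those with 8 or more cytosines that passed 25 points on each strand. For P5_2iL 352 tiles were eligible as higher than muscle and 97 as lower. Tiles eligible by this rule were not counted outside the flanks, so the counts here and below do not compare flanks with other tiles. On each strand alone, without the minimum of 8 cytosines, 8.83% of flanking tiles were higher in P5_2iL, with 10.4% of all tiles. There 2.44% were lower, with 2% of all. Itpkb, which encodes an inositol phosphate kinase, led at chr1:180333001-180334000, inside the gene, reading 7.94% in muscle, 95.6% in P5_2iL, 93.4% in P5_2iL_F, 72.2% in P5_a2iL_1 and 18.1% in P5_LCDM_1 over 18 cytosines. Its dense tile lay under 6% in all 5, and P5_LCDM_1 was nearest to muscle while the other 3 were high.

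Plxnb2, a semaphorin receptor gene, had a tile at chr15:89169001-89170000 reading 2.87% in muscle, 87.7% in P5_2iL, 85.4% in P5_2iL_F, 51.0% in P5_a2iL_1 and 65.3% in P5_LCDM_1. It was a low spot in muscle 2 tiles from a dense tile above 95% in all 5. Chd7, a chromatin remodeller gene, had a tile at chr4:8865001-8866000 reading 15.1% in muscle, 98.2% in P5_2iL, 99.2% in P5_2iL_F, 97.7% in P5_a2iL_1 and 91.7% in P5_LCDM_1, and was among the 5 largest rises in each of the 4 comparisons, which share the muscle library.

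Adad2, an RNA-binding protein gene of the testis, lay at 0% in muscle and 47.9% (P5_LCDM_1) to 84.7% (P5_2iL) in the teratomas at chr8:119610001-119611000. Runx3, a transcription factor gene of T cells and neurons, lay at 6.23% in muscle and 42.4% (P5_a2iL_1) to 90.4% (P5_2iL) at chr4:135156001-135157000. Spata2, an adaptor gene of inflammatory signalling, lay at 10.4% in muscle and 43.6% (P5_LCDM_1) to 99.2% (P5_2iL_F) at chr2:167485001-167486000. In these 3 tiles muscle was below every teratoma by over 30 points.

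Lower tiles in P5_2iL were led by Cyfip2, a gene of the actin-regulating WAVE complex, at chr11:46310001-46311000, reading 87.6% in muscle, 0.463% in P5_2iL, 13.6% in P5_2iL_F, 32.7% in P5_a2iL_1 and 54.7% in P5_LCDM_1 over 9 cytosines. Zfyve19, a gene of the last step of cell division, lay at 83.2% in muscle, 5.64% in P5_2iL, 18.3% in P5_2iL_F, 59.3% in P5_a2iL_1 and 68.8% in P5_LCDM_1 at chr2:119210001-119211000. Gadd45g, a stress response gene, lay at 79.8% in muscle, 4.89% in P5_2iL, 16.9% in P5_2iL_F, 70.4% in P5_a2iL_1 and 54.5% in P5_LCDM_1 at chr13:51843001-51844000. All 3 lay 2 tiles from a dense tile under 4% in every library, and in all 3 P5_2iL was lowest, P5_2iL_F next and muscle highest.

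Rab11fip4, a membrane traffic gene, lay at 86.0% in muscle and 14.1% (P5_2iL_F) to 46.4% (P5_LCDM_1) in the teratomas at chr11:79658001-79659000. The zinc finger gene Zfp697 lay at 71.2% in muscle, 1.17% in P5_2iL, 4.18% in P5_2iL_F, 49.3% in P5_a2iL_1 and 6.77% in P5_LCDM_1 at chr3:98429001-98430000. Ctsz, a lysosomal protease gene, lay at 96.9% in muscle and 22.6% (P5_2iL_F) to 71.5% (P5_a2iL_1) at chr2:174436001-174437000. At Zfp697 the P5_a2iL_1 library was the only teratoma above 7%.

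In P5_a2iL_1 158 tiles were eligible as higher than muscle and 41 as lower. On each strand alone, without the minimum of 8 cytosines, 4.10% of flanking tiles were higher, with 5.10% of all tiles, and 1.17% lower, with 0.791% of all. Tcf7l1, a Wnt pathway transcription factor gene of stem cells, had a tile at chr6:72787001-72788000 reading 21.7% in muscle, 94.4% in P5_2iL, 87.8% in P5_2iL_F, 92.2% in P5_a2iL_1 and 54.0% in P5_LCDM_1, beside a dense tile under 4% in all 5. Dnajb5, a chaperone gene, lay at 27.3% in muscle and 94.6% (P5_2iL_F) to 97.7% (P5_a2iL_1) at chr4:42952001-42953000. Popdc2, a membrane protein gene of heart and skeletal muscle, had a tile at chr16:38363001-38364000 reading 12.5% in muscle, 79.6% in P5_2iL, 65.6% in P5_2iL_F, 82.8% in P5_a2iL_1 and 27.0% in P5_LCDM_1. In P5_LCDM_1 the dense tile of Popdc2, at 63.9%, and the promoter window printed above were higher than this flank.

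Tfdp2, a cell cycle transcription factor gene, lay at 27.8% in muscle and 83.3% (P5_2iL_F) to 100% (P5_2iL and P5_LCDM_1) at chr9:96198001-96199000, 2 tiles from a dense tile under 1%. Camk2b, a calcium-dependent kinase gene of brain and muscle, was lower in all teratomas at chr11:6006001-6007000, reading 90.9% in muscle, 29.1% in P5_2iL, 29.0% in P5_2iL_F, 21.6% in P5_a2iL_1 and 14.6% in P5_LCDM_1. Its dense tile was lower too, at 3.98% (P5_2iL) to 17.2% (P5_a2iL_1) in the teratomas against 87.8% in muscle, so a whole stretch was methylated in muscle and low in the tumours.

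Rpia, a gene of the pentose phosphate pathway, lay at 100% in muscle and 40.6% (P5_a2iL_1) to 66.7% (P5_LCDM_1) at chr6:70793001-70794000. Mcoln2, a lysosomal channel gene, lay at 78.8% in muscle and 23.2% (P5_a2iL_1) to 66.0% (P5_2iL) at chr3:146151001-146152000. Galnt6, a gene of mucin glycosylation, lay at 64.3% in muscle, 0.962% in P5_2iL, 5.73% in P5_2iL_F, 10% in P5_a2iL_1 and 45.6% in P5_LCDM_1 at chr15:100728001-100729000. Muscle was the highest library in these 3 tiles, and the lowest teratoma was P5_a2iL_1 at Rpia and Mcoln2 and P5_2iL at Galnt6.

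P5_LCDM_1 had 209 tiles eligible as higher than muscle and 54 as lower. Egr3, an early response transcription factor gene needed for muscle spindles, had the largest difference from muscle among tiles with both strands past the rule at chr14:70080001-70081000, reading 2.22% in muscle, 10.3% in P5_2iL, 15% in P5_2iL_F, 37.8% in P5_a2iL_1 and 98.7% in P5_LCDM_1 over 15 cytosines. P5_LCDM_1 stood alone there, and its dense tile was at 61.7% against 11.9% (P5_2iL) to 37.9% (muscle) in the others. Dnmbp, a gene of cell junction signalling, lay at 4.65% in muscle and 37.6% (P5_a2iL_1) to 74.3% (P5_LCDM_1) at chr19:43878001-43879000.

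Lower tiles in P5_LCDM_1 included Gabpb1, a transcription factor subunit gene, at 45.2% against 100% in muscle and 73.8% (P5_a2iL_1) to 91.0% (P5_2iL) in the other teratomas at chr2:126676001-126677000. Arpc4, an actin assembly gene, lay at 55.1% in muscle, 0.433% in P5_2iL, 0.491% in P5_2iL_F, 11.7% in P5_a2iL_1 and 2.66% in P5_LCDM_1 at chr6:113379001-113380000. At Gabpb1 P5_LCDM_1 was the lowest library, and at Arpc4 muscle was the only one above 12%.

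Against P5_2iL, P5_LCDM_1 had 112 tiles eligible as higher and 165 as lower. Nadk2, a mitochondrial kinase gene, lay at 53.8% in muscle, 2.96% in P5_2iL, 0% in P5_2iL_F, 23.5% in P5_a2iL_1 and 71.2% in P5_LCDM_1 at chr15:9073001-9074000. B4galt5, a gene of glycolipid synthesis, lay at 63.9% in muscle, 0% in P5_2iL, 0% in P5_2iL_F, 16.7% in P5_a2iL_1 and 64.5% in P5_LCDM_1 at chr2:167351001-167352000. In both tiles P5_2iL and P5_2iL_F were near 0% and P5_LCDM_1 was highest, level with muscle at B4galt5.

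In the other direction, Nxn, a redox protein gene of Wnt signalling, lay at 34.1% in muscle, 90.5% in P5_2iL, 91.0% in P5_2iL_F, 64.7% in P5_a2iL_1 and 13.8% in P5_LCDM_1 at chr11:76401001-76402000. Arhgef15, an endothelial exchange factor gene, lay at 45.6% in muscle, 92.0% in P5_2iL, 90.6% in P5_2iL_F, 95.0% in P5_a2iL_1 and 30.02% in P5_LCDM_1 at chr11:68953001-68954000. Rapgef1, an exchange factor gene of cell adhesion, lay at 4.91% in muscle, 65.6% in P5_2iL, 54.2% in P5_2iL_F, 16.3% in P5_a2iL_1 and 4.85% in P5_LCDM_1 at chr2:29621001-29622000. P5_LCDM_1 was the lowest library in each, within 0.1 points of muscle at Rapgef1. A tile near Ccbe1, a gene of lymphatic vessel growth, led this direction, with 52.8% in muscle, 100% in P5_2iL and 22.2% in P5_LCDM_1, and a tile outside genes at chr15:96737001-96738000 rose from 1.11% in P5_2iL to 79.5% in P5_LCDM_1, with muscle at 70.2%.

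**Figure D5:**
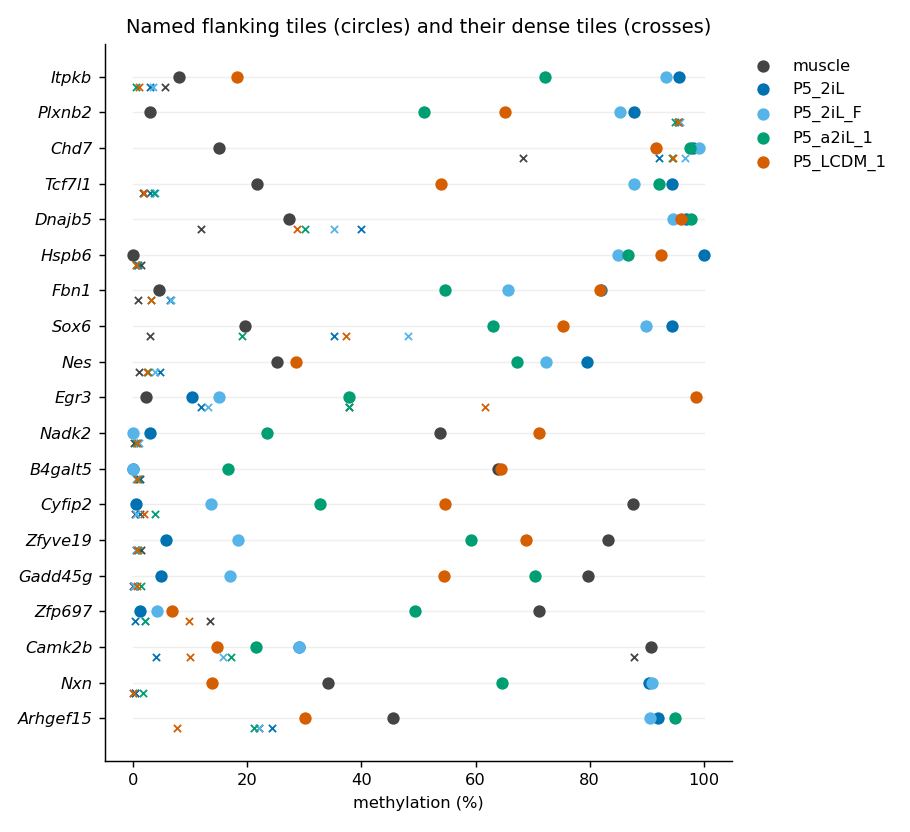
Methylation (horizontal axis, percent) of 19 named flanking tiles (circles) and of their dense tiles (crosses, drawn just below) in the 5 libraries, by gene. Many crosses lie under 10% while the circles span the axis, as at Itpkb (7.94% in muscle, 95.6% in P5_2iL), and at Egr3 only P5_LCDM_1 is high, at 98.7%.

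The tiles just inside and outside the limits of the rule are given for comparison. Tiles 1 or 2 away from a dense tile with 3 shared cytosines averaged 44.6% in muscle and 51.4% in P5_2iL, and those with 2, which are not members, 52.6% and 61.6%. Tiles with 19 averaged 25.5% and 31.2%, and those with 20 averaged 27.3% and 32.2%. Beside tiles of 40 cytosines the averages were 50.3% and 58.4%, and beside tiles of 39, too few to count as dense, 47.4% and 55.4%. Tiles of 2 cytosines were thus higher than tiles of 3, and tiles of 20 and those beside 40 were slightly higher than tiles of 19 and those beside 39.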

How the data were processed

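Reduced representation bisulfite libraries of muscle and 4 teratomas were used, 1 per group. The authors deposited, for each CpG cytosine and strand, a methylation level in percent, per the files' own values, with no read count. The submitters' processing notes name Trim Galore 0.6.4, Bismark and build mm10. Which Bismark version and coverage minimum applied is not given in the sources used here. Libraries were amplified by PCR, per the labels' protocols, so reads are not independent molecules. All 297337 shared cytosines inside RefSeq promoter windows fell on a CpG when positions were counted from 1, against 56.1% when counted from 0, so positions are 1-based.

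Tile levels were means over 3079380 autosomal cytosines listed in all 5 libraries, and a tile was counted as different at 25 percentage points. The planned comparisons were each teratoma with muscle and with the other teratomas (10 pairs), with no test because a group holds 1 sample. Genes came from RefSeq (GRCm38.p6), with 20665 autosomal protein coding genes, of which 16457 have a promoter window that gives strand. A tile was named by the gene whose start or end lay nearest its dense tile within 1 kb, otherwise by a gene holding it. In the gene lists a tile was named by a listed gene within 1 kb of its dense tile, which need not be the nearest gene. The tile given for Gbx2 lay nearest to LOC102637806. Named tiles were, per direction, those with the 5 largest differences and with at least 8 cytosines and 25 points on each strand, for each teratoma against muscle and P5_LCDM_1 against P5_2iL, and up to 4 per gene list. Some of the tiles chosen by that rule are given only in the counts or are not reported here. The flanking tiles, the 12 lists and these rules were chosen with earlier results of these data known. The code was tested on simulated data. Tools were NumPy 2.4.6 and pandas 2.3.3 in Python 3.11.15, with matplotlib 3.10.9 for figures. Alternatives covered the density limit, the cytosine minimum, the tile grid, strands, weights, gene distance and the size rule.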

Additional observations from a re-analysis of the deposited data

How the results depend on the processing

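Of 167 values under other settings, 127 moved by less than the SD over autosomes (means and steps) or by under 1.5 times (percents of tiles), 39 moved by more and 1 changed sign. The values on each strand alone and those for farther tiles were added after seeing the data, and the cause of a shift was not tested. With CpGs listed on both strands only, the mean difference from muscle at the flanks was 4.55 points in P5_2iL, 4.09 in P5_2iL_F, 2.30 in P5_a2iL_1 and 3.28 in P5_LCDM_1, that of P5_LCDM_1 from P5_2iL was -1.27, and P5_LCDM_1 minus muscle in farther tiles became -0.111 from 0.244. In flanking tiles over 1 kb from gene starts and ends, the differences were 8.42 in P5_2iL, 7.63 in P5_2iL_F and -4.07 for P5_LCDM_1 minus P5_2iL, and the steps from 1 to 2 tiles 17.9 in muscle, 20.1 in P5_2iL, 19.3 in P5_2iL_F, 18.1 in P5_a2iL_1 and 17.2 in P5_LCDM_1. With dense tiles of 30 or more cytosines the steps were 25.8, 29.2, 28.7, 26.9 and 26.2 in that order, and P5_LCDM_1 minus P5_2iL was -3.99, against -1.70 with 60 or more. At 25 points on each strand alone, higher and lower tiles made up 8.83% and 2.44% in P5_2iL, 7.52% and 2.18% in P5_2iL_F, 4.10% and 1.17% in P5_a2iL_1, 5.51% and 1.53% in P5_LCDM_1, and 2.89% and 4.15% in P5_LCDM_1 against P5_2iL. At 33 points they made up 9.02% and 2.44% in P5_2iL_F, 5.71% and 1.91% in P5_a2iL_1, 6.37% and 1.83% in P5_LCDM_1, and 2.69% and 4.42% in P5_LCDM_1 against P5_2iL, and at 20 points lower tiles in P5_a2iL_1 made up 5.17%. Higher tiles outnumbered lower ones in each teratoma against muscle, and the reverse held for P5_LCDM_1 against P5_2iL, under each of these settings. No paired analysis was possible because each group holds 1 sample. Unknown read depth limits single tiles of 3 to 5 cytosines most, and no sample could be left out.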

Other observations

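On the X chromosome, which the autosomal comparison leaves out, 138 tiles 1 away from a dense tile averaged 20.3% in muscle, 24.2% in P5_2iL, 23.5% in P5_2iL_F, 23.0% in P5_a2iL_1 and 23.3% in P5_LCDM_1. The 34 tiles 2 away averaged 42.5%, 47.1%, 48.8%, 47.9% and 45.8% in the same order. Both distances lay below the autosomal means in each library. The 5181 X-linked tiles farther away were at 76.2% in muscle, 83.1% in P5_2iL, 82.3% in P5_2iL_F, 78.2% in P5_a2iL_1 and 69.4% in P5_LCDM_1, so on this chromosome P5_LCDM_1 was above muscle at the flanks and below it farther away. Sex was not taken into account here, so its part in these differences was not tested.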
